A study of Drosophila melanogaster with 6 samples.

Results

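In Drosophila melanogaster ovaries that lacked Gcna, 83 genes known only by a CG number, or listed under one, were measured at several times their wild-type level. They are 83 of the 5868 CG-numbered genes in a table of 13216 genes and repeats, or 1.41% of the CG-numbered rows. A gene was included when its mean over the 3 Gcna null libraries was at least 20 normalized counts and at least 4 times its mean over the 3 wild-type libraries, and when its lowest null value lay above its highest wild-type value. CG4415, CG32364 and CG12721 were left out by name. These criteria use the difference between the genotypes itself, so the differences of the 83 genes are given below as a description, with no p-value. The wild type was the wBerlin strain. The other group was a GCNA null stock made with a knockin-knockout CRISPR construct and crossed back to wBerlin over 10 generations, so that wBerlin is the shared background and any other chromosome segment kept from the founder would differ together with Gcna. Females of both stocks were collected at 0 to 2 days, fed wet yeast for 24 hours and dissected at 1 to 3 days of age. Total RNA of the ovaries, small RNA included, was sequenced after depletion of ribosomal RNA, and the values are read counts divided by 1 size factor per library.

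CG numbers are the identifiers that the fly genome annotation gives to predicted genes, and a gene keeps one as its name until a phenotype, a protein family or a related gene gives it another. An ovary holds germline cysts of nurse cells and an oocyte, a somatic follicle epithelium and a muscle sheath, and a dissected sample can carry pieces of neighbouring tissue such as the gut, the fat body or the oviduct. Genes that are nearly silent in the ovary are often known from another tissue, above all the testis and the digestive tract. In whole-ovary RNA, more cells of a type and more RNA per cell cannot be told apart.

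The libraries held 38401723 to 55758180 reads, so that 1 read was worth 0.789 to 1.15 normalized counts. The first and second GCNA null libraries were nearly as alike as counting noise allows (chi-square 1.66 per degree of freedom, against 26.9 to 100.4 for the other pairs of a group) and were counted as 1 sample in every fit, which leaves 3 wild-type and 2 null samples. The labels do not state whether samples of 1 group stem from different flies; p-values therefore cover the spread among these samples, and that spread may be technical. CG14814, the row of Gcna, stood at 20676, 18292 and 19581 normalized counts in wild type and 493, 428 and 520 in the null libraries, so all 6 labels matched the level of the targeted gene. The germline markers vas, nos, osk, bam, aub and otu and the follicle cell markers tj, br, Cp36, Vm26Ab and Fas3 were detected in every library, as the labelled tissue requires.

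Most of the 83 genes were scarce in wild-type ovaries and remained of low abundance without Gcna. Their wild-type means ranged from 0 to 420.3 normalized counts with a median of 8.03. Of the 83, 51 (61.4%) had a wild-type mean under 10, against 2.90% of the 10132 rows that passed the filter on low values. That filter drops rows scarce in both genotypes, and the criteria favour a low wild-type mean. The contrast thus follows at least in part from the choice of rows. The null means ranged from 21.0 to 2239 with a median of 84.3; 39 genes had a null mean of at least 100, and the 3 highest means were 1060, 1168 and 2239. Per kb of exon, the median null level was 54.4 normalized counts for the 83 genes and 759 for all tested genes with coordinates. The ratio of the null to the wild-type mean had a median of 9.48, and it was at least 8 in 46 genes, at least 16 in 27 and at least 32 in 13, with genes without a wild-type read set to a floor of 3 reads over the group. All 83 passed the filter on low values, which asks for at least 10 normalized counts in 3 libraries and which their null libraries alone could satisfy. In a limma fit over all rows, 61 of the 83 were called higher at an adjusted p under 0.05, where 4.25% of all tested rows were. Of all tested rows, 1.64% met the thresholds on mean and ratio, and 19.6% had every null library above every wild-type library. Since the genes were chosen on the same contrast, the count of 61 supports nothing by itself. It was 40 without null replicate 3 and 28 without null replicates 1 and 2. Their median log2 difference in that fit was 3.36, and that of all tested rows was -0.00045.

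**Figure D1:**
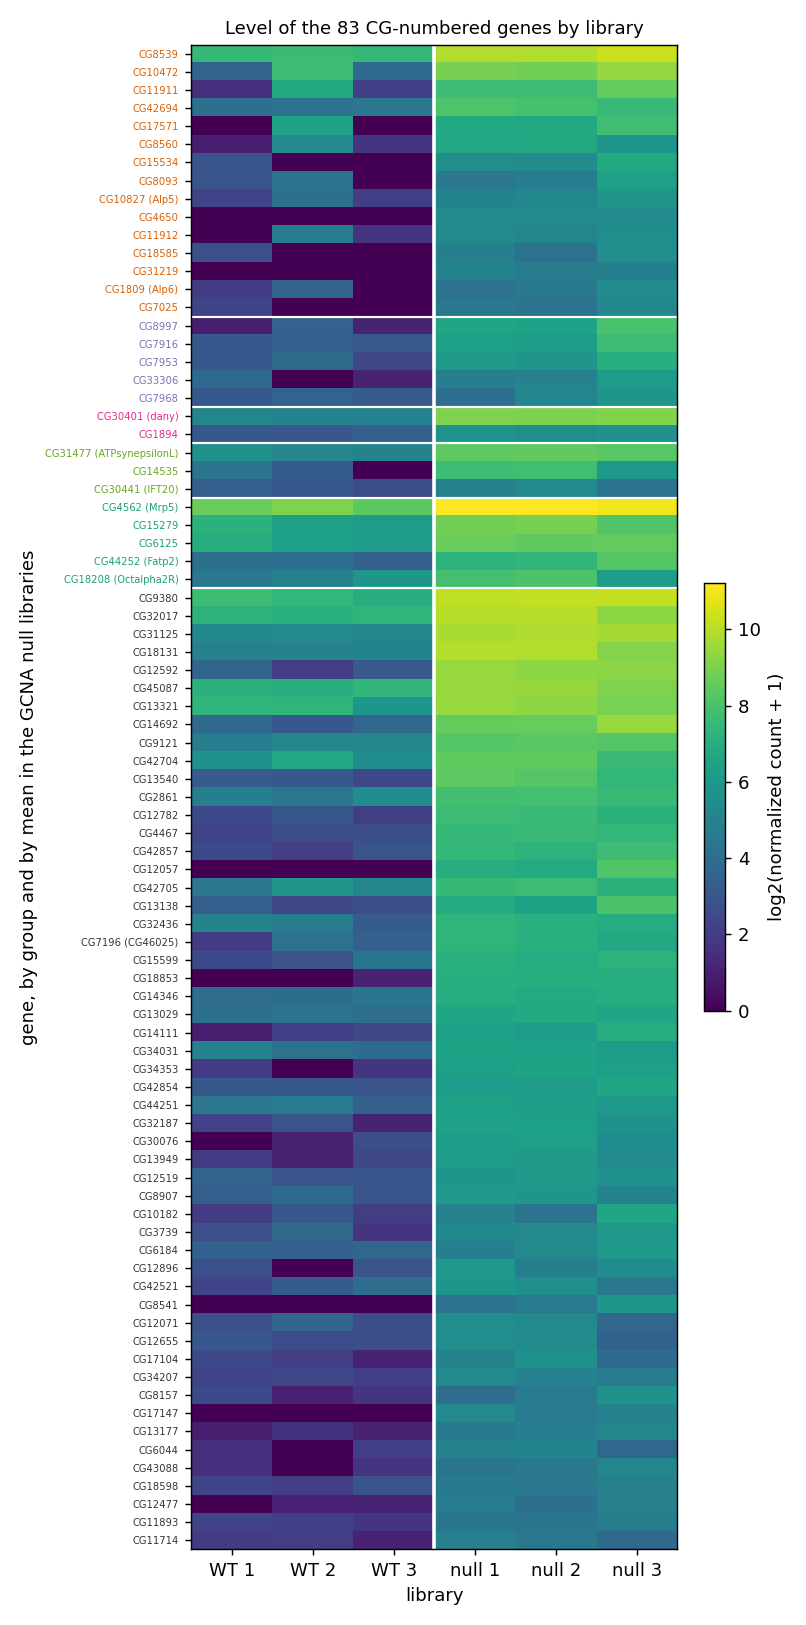
Level of each of the 83 genes (rows, grouped by role and ordered by the mean in the GCNA null libraries) in the 3 wild-type (WT) and 3 GCNA null libraries (columns), as log2 of the normalized count plus 1. Every row is brighter in the null libraries, which the choice of genes requires; part of the hydrolases at the top are brighter in wild-type replicate 2 than in the other wild-type libraries, and the rows differ in whether null replicate 3 is brighter or darker than replicates 1 and 2.

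The thresholds cut through a continuous range. The lowest null means inside were 21.0 for CG11714, 21.6 for CG11893 and 23.4 for CG12477, and the highest outside were 19.9 for CG33003, 19.2 for CG5866 and 18.9 for CG12950. The lowest ratios inside were 4.003 for CG7968, 4.005 for CG6125 and 4.01 for CG15279, and the highest outside were 3.87 for CG32407, 3.85 for CG43103 and 3.84 for CG17633. The smallest gaps between the groups were 0.449 normalized counts for CG12071, 1.67 for CG8093 and 2.58 for CG12655, and only 4 CG-numbered genes met the thresholds on mean and ratio without a gap. Of these, CG9812, CG7300 and CG8562 came closest, with null replicate 3 at 7.05, 1.01 and 34.2 normalized counts.

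Membrane transporters and receptors included the most abundant of the 83 genes. CG4562, now named Mrp5 for a multidrug resistance transporter of the ABC family, lies on chromosome arm 3R at 19865417 to 19875678 (dm6) and showed normalized counts of 404.9, 518.0 and 337.9 in wild type and 2342, 2365 and 2010 without Gcna, in the order of replicates 1 to 3 that is used throughout. All null libraries were thus close together and 5.33 times the wild-type mean on average (log2 difference 2.39, SE 0.18). CG44252, named Fatp2 for a fatty acid transport protein, had 16.8, 15.9 and 9.81 in wild type and 150.7, 166.5 and 297.9 without Gcna, with null replicate 3 the highest. CG18208 is Octalpha2R, a receptor for octopamine, a neurotransmitter that acts on the ovary and oviduct of insects, and it had 21.5, 28.5 and 59.9 in wild type against 236.9, 266.7 and 77.5. Its null replicate 3 stood near the highest wild-type library, and the gene's log2 difference of 2.04 had an SE of 0.61. CG15279, of the SLC6 family of neurotransmitter and amino acid transporters, and CG6125, of the SLC26 family of anion transporters, lay just inside the threshold on the ratio. CG15279 had 147.7, 82.5 and 70.8 in wild type and 439.3, 481.3 and 286.9 without Gcna, and CG6125 had 127.2, 81.4 and 70.8 against 399.1, 349.5 and 370.4. Over these 5 genes together the levels were 549.3 to 726.3 in the wild-type libraries and 3043 to 3629 in the null libraries.

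Among genes of transcriptional control and cell machinery, CG30401, now called dany, had close values within each group. Dany is a chromatin-associated protein of spermatocytes, where it takes part in transcriptional control. CG30401 lies on 2R at 21985626 to 21986938 and had 34.6, 32.8 and 30.5 normalized counts in wild type against 519.8, 502.6 and 537.5 in the null libraries, 15.9 times the wild-type mean (log2 difference 3.97, SE 0.17). The groups were thus far apart, with little spread inside either. CG31477, the gene ATPsynepsilonL, which encodes a relative of the epsilon subunit of ATP synthase, had 53.3, 33.8 and 31.6 in wild type and 342.7, 351.9 and 316.1 without Gcna. CG1894, a MYST family acetyltransferase gene, had 7.48, 7.40 and 9.81 against 55.2, 45.0 and 50.3. CG30441 is IFT20, a subunit of the intraflagellar transport complex that builds cilia, and was scarce throughout, with 9.35, 7.40 and 5.45 in wild type and 29.9, 40.2 and 19.1 in the null libraries. CG14535, a kinesin-like gene, had 18.7, 8.46 and 0 against 208.2, 214.6 and 61.4, so that null replicate 3 held 0.29 times the mean of the other null libraries.

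A list of 34 genes known chiefly from testis or late germline stages gives the setting of these values. Of the 34, 18 had a row and 11 passed the filter; 1 was called higher, 1 lower. The higher one was aly, a regulator of the spermatocyte programme, with 3.74, 2.11 and 0 normalized counts in wild type and 40.3, 39.4 and 80.5 in the null libraries (log2 difference 4.56, limma adjusted p = 0.021). topi, a partner of aly in the same testis complex, was the lower one, with 74.8, 87.8 and 70.8 against 13.8, 17.4 and 27.2 (log2 difference -1.86, limma adjusted p = 0.021). The median log2 difference of the tested list members was 0.10, and 6.37% of all rows were called in either direction. Part of the tested list was abundant in ovaries of both genotypes, so this median does not describe genes of the testis alone. Levels ran from 85854 to 104302 normalized counts for dhd, 10946 to 13436 for CycB3 and 5972 to 6746 for twe. They were 658.0 to 886.5 for bol and 635.4 to 1266 for Pif1A. Mst77F, Mst87F, loopin-1 and soti stayed at or under 6.04 normalized counts in every library, but other listed genes did not. Over all libraries fzo had 37.4 to 58.4, janB 21.8 to 39.1 and betaTub85D 2.81 to 12.6. can, which did not pass the filter, had 0.935, 0 and 1.09 in wild type against 9.20, 7.89 and 5.03 in the null libraries. With 1 library left out, topi lost its call without any 1 of the wild-type libraries (adjusted p 0.066 to 0.078), aly lost its call without wild-type replicate 2 (0.062) or null replicate 3 (0.084), and neither passed without null replicates 1 and 2.

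The largest ratios belonged to genes with few or no wild-type reads, several with values that hardly differed between the null libraries. CG18853, on 2R at 7829062 to 7830429, had 1 read in all wild-type libraries and 131.1, 127.8 and 126.8 normalized counts in the null libraries, a ratio of reads of 377 with an exact 95% interval of 67.2 to 14912 that covers counting error only. It overlaps Prosalpha1R (row CG30382), a proteasome subunit gene on the other strand, whose log2 difference was 0.13 (limma adjusted p = 0.53). CG12057, on the X at 9191657 to 9192548, was without a single wild-type read and had 125.4, 119.1 and 289.9 without Gcna, at least 173-fold higher against the floor of 3 reads over the group. CG12592, on 3R at 10338342 to 10340872, went from 11.2, 3.17 and 7.63 to 705.0, 631.2 and 618.0, a ratio of 88.7 (log2 difference 6.40, SE 0.46), and no other annotated gene overlaps it. For CG34353, a gene that spans 27767966 to 27905843 on 3R, the values were 2.81, 0 and 2.18 in wild type and 80.5, 88.4 and 80.5 in the null libraries, a ratio of 50.03. CG14692, a gene of up to 18 exons on 3R, had 13.1, 7.40 and 11.99 against 374.9, 386.6 and 708.6. In each of these genes the lowest null value was far above the highest wild-type value. The criteria require such a gap, and the choice of the largest ratios favours a wide one.

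In all, 5 of the 83 genes had no wild-type read. Besides CG12057 these were CG4650 (40.3, 38.7 and 41.3 normalized counts in the null libraries, at least 39.0-fold higher), CG8541 (17.3, 22.9 and 58.4, at least 31.96-fold), CG17147 (38.0, 22.9 and 29.2, at least 29.2-fold) and CG31219 (31.1, 26.04 and 27.2, at least 27.3-fold). CG12477 had 2 wild-type reads and 25.3, 16.6 and 28.2 normalized counts without Gcna, a ratio of reads of 33.3 (exact 95% interval 8.87 to 279.95). The 5 genes without a wild-type read had null means between 28.1 and 178.1.

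Hydrolases, most of them of families that work in digestion, formed the largest of the groups given a role here. The 15 genes comprise 7 serine proteases or homologs of the chymotrypsin family (CG10472, CG11911, CG11912, CG17571, CG31219, CG4650 and CG42694), 4 zinc carboxypeptidases (CG8539, CG8560, CG18585 and CG7025), the lipase gene CG8093, the sphingomyelin phosphodiesterase gene CG15534, and the alkaline phosphatase genes CG10827 (Alp5) and CG1809 (Alp6). The grouping was made after the values were seen. The share of such hydrolases among all CG-numbered rows was not counted, so the size of the group does not show an excess. CG8539, on 3L at 7497211 to 7498831, was the most abundant, with 182.3, 196.6 and 176.6 normalized counts in wild type and 966.1, 952.3 and 1260 in the null libraries (log2 difference 2.56, SE 0.15). CG42694 had 15.9, 16.9 and 20.7 against 276.0, 247.0 and 194.3. In both genes the wild-type libraries lay close together.

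Several other hydrolases were unequal among the wild-type libraries. Replicate 2 was the highest of the 3 in 9 of the 15 genes, CG8539 included, while it was the highest in 30 of the 83 genes (36.1%) and in 37.5% of all tested rows. CG4650 and CG31219 had no wild-type read. CG10472 had 11.2, 209.3 and 13.1 normalized counts in wild type and 485.3, 453.7 and 699.6 without Gcna. CG11911 had 1.87, 110.0 and 3.27 against 213.9, 209.1 and 379.5, and CG17571 had 0, 86.7 and 0 against 110.4, 110.5 and 214.4. CG11912 had 0, 26.4 and 2.18 against 39.1, 33.9 and 45.3, and CG8560 had 0.935, 39.1 and 2.18 against 103.5, 108.1 and 57.4. The alkaline phosphatase genes were scarce, Alp5 with 3.74, 15.9 and 3.27 against 32.2, 37.1 and 56.4, and Alp6 with 2.81, 11.6 and 0 against 17.3, 22.1 and 41.3. For these genes the null values exceeded wild-type replicate 2 by far less than they exceeded the other wild-type libraries. Wild-type replicate 2 was at least 3 times both others, with at least 10 normalized counts, in 8 of the 83 genes (9.64%) and in 93 of the 10132 tested rows (0.918%). Those 8 were CG10472, CG11911, CG11912, CG17571, CG8560, CG10827, CG1809 and CG8997. Against wild-type replicates 1 and 3 alone their null means were at least 11.9 times higher. That ratio is raised by the choice of these 8, since it leaves out the library that they were picked for. CG15534 (6.55, 0 and 0 against 44.9, 41.8 and 110.7), CG18585 (5.61, 0 and 0 against 26.5, 17.4 and 44.3) and CG7025 (3.74, 0 and 0 against 20.7, 18.1 and 36.2) had no read in wild-type replicate 2 and thus did not share its pattern. The lipase gene CG8093 had 6.55, 19.0 and 0 against 20.7, 25.2 and 82.5, so that null replicate 1 was within 2 normalized counts of wild-type replicate 2.

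Gut markers moved with part of these values. All 5 listed gut genes had a row and none was at 0; their summed level was 4772 to 10693 normalized counts in wild type and 5597 to 6367 in the null libraries, most of it from LM408 (LManII), an alpha-mannosidase gene that was abundant in every library. The digestive protease gene Jon65Aiii had 215.1, 2506 and 82.8 in wild type and 365.7, 362.1 and 59.4 in the null libraries, and betaTry, a trypsin gene, had 183.3, 1729 and 126.4 against 180.6, 180.7 and 6.04. alphaTry followed betaTry, and Mal-A1, a maltase gene, had 134.7, 373.2 and 37.1 against 219.7, 202.8 and 207.4. So the trypsins and Jon65Aiii were highest in wild-type replicate 2 and lowest in null replicate 3, where 12 of the 15 hydrolases were at their highest. With limma, none of the 5 passed in either direction, also at an unadjusted p under 0.05. Single digestive genes outside the 83, chosen after their values were seen, behaved in both ways. The protease gene Jon99Fii had 0, 217.8 and 0 in wild type and 308.2, 298.2 and 544.5 without Gcna, whereas the lysozyme gene LysD had 621.8, 3547 and 88.3 against 273.7, 280.1 and 4.03. Of the 85 rows outside the 83 genes in which wild-type replicate 2 was at least 3 times both other wild-type libraries, 15 had a null mean above that library. The part of gut RNA in the values of the hydrolases was not tested.

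**Figure D2:**
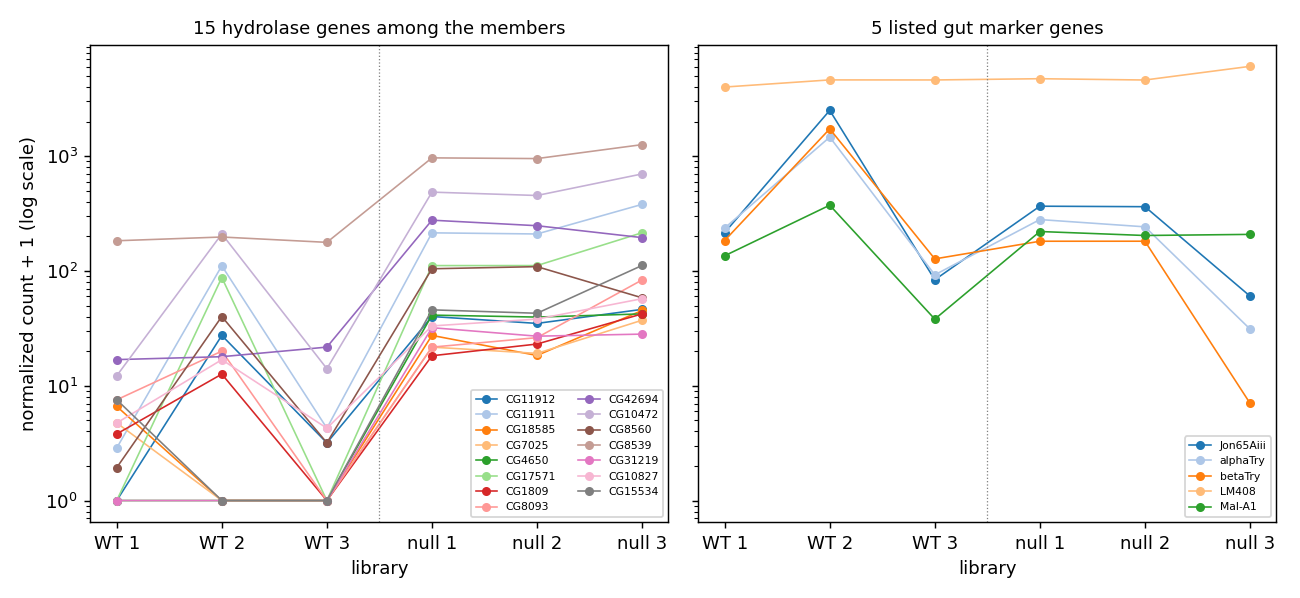
Normalized count plus 1 (log scale) in each library for the 15 hydrolase genes among the 83 (left) and for the 5 listed gut marker genes (right), 1 line per gene. Among the wild-type libraries, 9 of the 15 hydrolases and all 5 gut markers are highest in replicate 2, LM408 by little. Every hydrolase is higher still in all null libraries, which the choice of genes requires. The gut markers other than LM408 have their highest value of all libraries in wild-type replicate 2. Jon65Aiii, alphaTry and betaTry are lowest in null replicate 3.

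On 2L, 5 of the 83 genes lie side by side within the large gene CenG1A, between 13842888 and 13850329. In order they are CG33306, CG8997, CG7916, CG7953 and CG7968, small genes of 2 or 3 exons. CG8997 had 0.935, 10.6 and 1.09 normalized counts in wild type and 96.6, 89.2 and 252.6 in the null libraries, CG7916 had 7.48, 9.52 and 7.63 against 81.7, 75.0 and 204.3, and CG7953 had 7.48, 13.7 and 4.36 against 63.3, 56.0 and 132.9. CG33306, with 13.1, 0 and 1.09 against 26.5, 30.0 and 71.5, and CG7968, with 7.48, 10.6 and 8.72 against 16.1, 34.7 and 56.4, were the least abundant. All 5 were highest in null replicate 3, at a median of 2.53 times the mean of null replicates 1 and 2. CenG1A, which encodes a regulator of small GTPases and is read from the strand of CG7916, CG7953 and CG7968, had a log2 difference of 0.04 (limma adjusted p = 0.86), so the gene around the run did not pass the test. Whether reads of these adjacent genes could be exchanged between them by the counting was not analysed here.

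**Figure D3:**
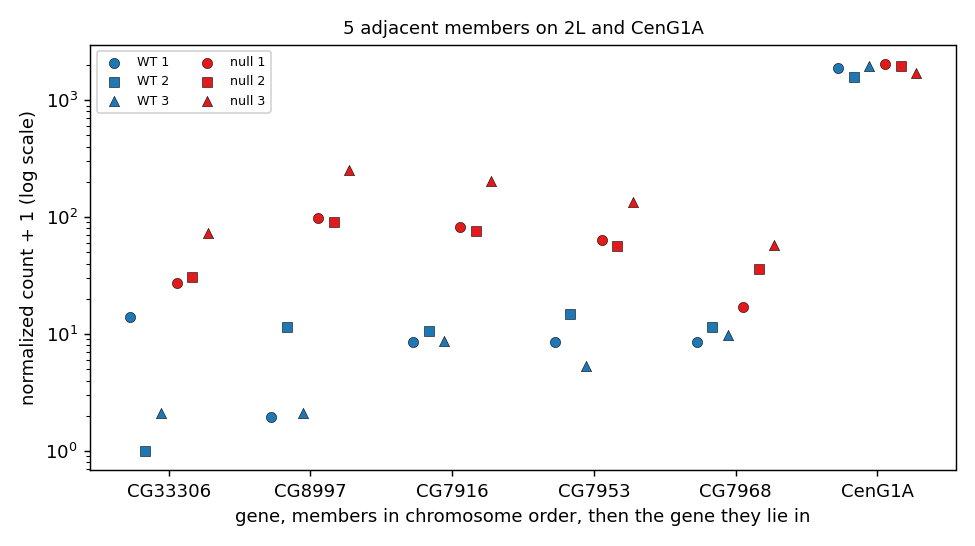
Normalized count plus 1 (log scale) of the 5 adjacent genes on 2L and of CenG1A, in which they lie, in each wild-type (WT) and GCNA null library (1 symbol per library). In each of the 5 genes null replicate 3 is the highest library and all wild-type libraries are below the null ones, while the 6 values of CenG1A overlap.

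A further 53 genes have no role given here, and they include many of the more abundant ones. CG9380, on 2R at 25183628 to 25255318, had 214.1, 172.3 and 125.3 normalized counts in wild type and 1127, 1168 and 1210 without Gcna. CG32017, the only one of the 83 on chromosome 4, had 151.5, 138.5 and 161.3 against 1012, 1012 and 628.1. CG31125, on 3R at 24653371 to 24654820, is a gene of 1 exon and had 36.5, 38.1 and 33.8 against 872.9, 923.9 and 826.4 (log2 difference 4.54, SE 0.16), with both groups tight. CG18131 had 28.1, 31.7 and 32.7 against 994.8, 968.1 and 562.7, and CG13321 had 165.5, 160.7 and 58.9 against 714.2, 624.1 and 491.2. Of these 5, null replicate 3 was clearly below the other null libraries in CG32017, CG18131 and CG13321.

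The value of CG45087 cannot be separated from that of Pepck, the gene of the gluconeogenic enzyme phosphoenolpyruvate carboxykinase. CG45087 is annotated at 18536767 to 18539416 on 2R, within Pepck (Pepck1 in the reference) and on its strand. CG45087 had 144.9, 127.9 and 166.8 normalized counts in wild type and 716.5, 687.2 and 518.4 in the null libraries. The rows of both hold 155 and 121 reads in wild-type replicates 1 and 2 and 623, 871 and 515 in the null libraries, and they differ by 1 read in wild-type replicate 3, with 153 for CG45087 and 154 for Pepck. The 2 rows are therefore 1 measurement. No other row came within 2% of one of the 83 genes in every library.

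Other genes with a null mean of at least 100 and no role given were CG13540 (8.42, 7.40 and 4.36 against 346.2, 293.5 and 168.1), CG12782 (4.68, 7.40 and 3.27 against 203.6, 196.5 and 144.9), CG4467 (3.74, 5.29 and 5.45 against 182.9, 191.7 and 168.1) and CG42857 (4.68, 3.17 and 6.5 against 174.8, 152.3 and 210.4), all with ratios between 35.5 and 40.0. In CG9121, CG2861, CG42704, CG42705, CG13138, CG32436, CG7196 (now CG46025; 2.81, 16.9 and 9.81 against 162.2, 139.6 and 107.7), CG15599, CG14346 and CG13029 the null means were likewise above 100. The remaining genes had null means under 100 normalized counts: CG14111, CG34031, CG42854, CG44251, CG32187, CG30076, CG13949, CG12519, CG8907, CG10182, CG3739, CG6184, CG12896, CG42521, CG12071, CG12655, CG17104, CG34207, CG8157, CG13177, CG6044, CG43088, CG18598, CG11893, CG11714 and those given above. With so few reads, part of the spread between libraries is counting error, and the size of that part was not tested. Over the less abundant rows of the whole table, chi-square per degree of freedom was 1.28 between null replicates 1 and 2. It was 10.99 and 12.3 between these and null replicate 3.

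The null libraries differed among themselves more for the 83 genes than for other rows. Null replicate 3 was the highest null library in 37 of the 83 genes, the lowest in 38 and between the others in 8. Its ratio to the mean of null replicates 1 and 2 ran from 0.24 in CG12655 to 4.11 in CG10182, with a median of 0.96. It was at least 1.5 in 24 genes (28.9%, against 6.198% of all tested rows) and at most 0.67 in 20 (24.1%, against 7.11%). Scarce rows vary more from counting alone, and the 83 genes are scarcer than most rows, so this contrast is a description and was not tested. Among the 24 were 8 hydrolases, all 5 genes of the run on 2L and 11 others, such as CG12057, CG14692, Fatp2, CG13138 (118.5, 88.4 and 259.7 in the null libraries) and CG10182 (29.9, 18.1 and 98.6). Among the 20 were CG14535, Octalpha2R, CG15279, IFT20, CG32017, CG18131, CG12071 (43.7, 40.2 and 12.1) and CG12655 (43.7, 41.0 and 10.1). The latter pair came within 3 normalized counts of a wild-type library in null replicate 3, so their separation from wild type rested on null replicates 1 and 2.

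**Figure D4:**
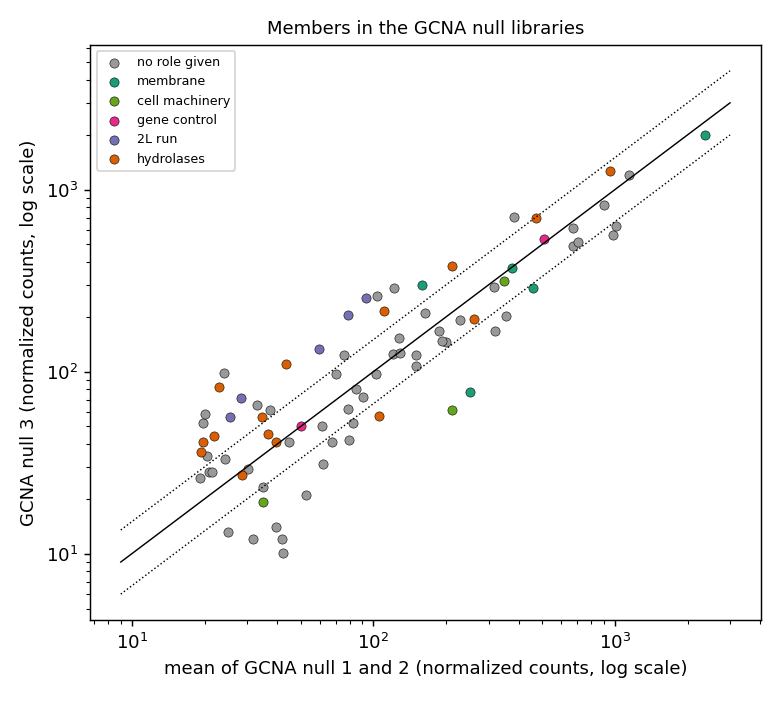
Level of each of the 83 genes in GCNA null replicate 3 (vertical, normalized counts, log scale) against the mean of null replicates 1 and 2 (horizontal, log scale), coloured by group; the solid line marks equal levels and the dotted lines a ratio of 1.5 either way. All 5 genes of the 2L run and 8 of the 15 hydrolases lie above the upper dotted line.

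The 83 genes were spread over the genome. Of them 8 lie on the X (9.64%, against 17.3% of tested genes with coordinates), 20 on 2L (24.1% against 18.4%), 19 on 2R (22.9% against 20.4%), 14 on 3L (16.9% against 19.0%), 21 on 3R (25.3% against 24.0%) and 1 on chromosome 4. All 83 are annotated as protein coding. Their median exon length was 1423 bases, against 1996 for all tested genes and 1796 for tested CG-numbered genes, and 32 (38.6%) have at most 2 exons, against 31.1% of tested genes. Within another gene lie 17 of the 83 (20.5%, against 12.9%), and 39 overlap another annotated gene (47.0%, against 53.4%), 11 of them on the same strand. The libraries were strand-specific, but the sources used here do not give the strand setting of the counting, so reads of overlapping genes may be shared, on either strand. These shares are descriptions with no test, and the share on the X was the lowest relative to the tested genes.

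Counting genes within 20 kb of one another, 17 of the 83 fell into 7 groups and 66 stood alone. Besides the run on 2L these were pairs. CG11912 and CG11911, both serine protease genes, lie within Plc21C on 2L (log2 difference of Plc21C 0.01), and CG18585 and CG7025, both carboxypeptidase genes, are adjacent on 2L. CG44251 (20.6, 24.3 and 9.81 against 80.5, 77.3 and 62.4) lies beside CG13321 on 2R. CG12782 and CG13540 are neighbours on 2R, CG31219 and CG6184 (10.3, 9.52 and 11.99 against 26.5, 39.4 and 65.4) overlap at their ends on 3R, and CG42704 (50.5, 101.5 and 42.5 against 356.5, 351.1 and 201.3) and CG42705 (20.6, 56.0 and 33.8 against 179.4, 205.1 and 147.0) are adjacent on the X. Both genes of the last pair had wild-type replicate 2 as the highest wild-type library.

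Genes beside the 83 mostly did not pass the test. Of 88 tested genes that were the nearest neighbour of one of the 83 on either side, within 10 kb and without overlap, 7 were called higher (7.95%, against 4.25% of all tested rows) and none lower (limma, Benjamini-Hochberg adjusted), and the median log2 difference of the 88 was 0.03. At an unadjusted p under 0.05, 15 were higher and 8 lower, and lower calls numbered 0 with edgeR and 1 with DESeq2. Dhc98D, a dynein heavy chain gene 890 bases from CG1894, had 149.6, 87.8 and 113.4 normalized counts in wild type and 1972, 1972 and 1538 in the null libraries (log2 difference 3.92, limma adjusted p = 0.00066). ord, which encodes a protein of meiotic sister chromatid cohesion, lies 197 bases from CG13540 and had 63.6, 44.4 and 54.5 against 295.6, 329.8 and 218.4 (log2 difference 2.26, limma adjusted p = 0.0055). In both genes, as in the member beside them, every null library was above every wild-type library. Cyp4d8, a cytochrome P450 gene beside CG8539, had a log2 difference of 2.14, CR44756 near CG34207 one of 2.61, Irc, a catalase-like peroxidase gene beside CG8907, one of 1.76, Tep2, a thioester-containing immune protein gene beside CG7025, one of 1.25, and CG7324 beside CG32436 one of 0.31, with limma adjusted p from 0.014 to 0.040. The number called higher was 5, 2 and 6 without wild-type replicates 1, 2 and 3. It was 8 without null replicate 1, 7 without null replicate 2, and 12 with 6 separate samples. Leaving out null replicate 1 or 2 alone keeps the other, which is nearly alike, so 8 and 7 do not show how far the number depends on the null samples. Fits without a wild-type library held fewer samples. The rows called higher over the whole table fell from 431 to 270, 260 and 222 without wild-type replicates 1, 2 and 3. Why the number of neighbours called moved was not tested.

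Of 28 tested genes with coordinates outside the 83 that overlap one of them, 5 were called higher by limma (17.9%, against 4.25%) and none lower. Pepck, in which CG45087 lies and with which it shares its reads, was not among the 28, so the count is not complete. At an unadjusted p under 0.05, 8 were higher and 2 lower with limma, and lower calls numbered 0 with edgeR and 2 with DESeq2. The 2 that were lower at the unadjusted threshold, CG33995 and CG44001, share coordinates and nearly all reads. Both had 3231 normalized counts in wild-type replicate 1 and 2506 in null replicate 1, so these 2 rows are 1 measurement. Prosalpha1R and the neighbour Prosalpha1 also had nearly equal values, 2512 and 2513 normalized counts in wild-type replicate 2. CR43967, a non-coding RNA gene that overlaps CG34031 on the other strand, had 4.68, 7.40 and 3.27 normalized counts in wild type and 70.2, 81.3 and 90.6 without Gcna (log2 difference 3.83, limma adjusted p = 0.0047). Fuca, an alpha-fucosidase gene that overlaps CG11714 on the same strand, had 29.0, 33.8 and 22.9 against 364.6, 376.3 and 143.9 (log2 difference 2.99, limma adjusted p = 0.013), and CG11714 itself, with 2.81, 3.17 and 1.09 against 28.8, 21.3 and 13.1, was also lowest among the null libraries in replicate 3. ebd2, Gp150 and CG4686 had log2 differences of 0.68, 0.36 and 0.45. For the overlapping genes a shared read would move both values, and that was not tested. The other 23 of the 28, among them Plc21C, CenG1A, Calx, Ino80, ttv and ash2, did not pass.

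**Figure D5:**
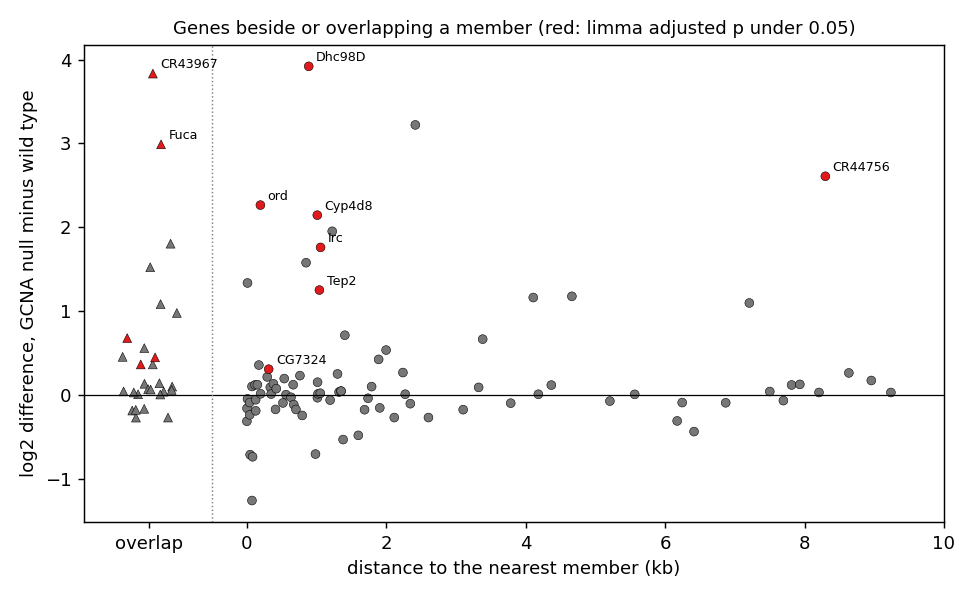
Log2 difference (GCNA null minus wild type, limma) of the 88 nearest neighbours of the 83 genes against their distance in kb (circles). Triangles at the left, spread sideways for legibility, are the 28 counted genes that overlap one of the 83, without Pepck. Red marks an adjusted p under 0.05. Most points lie near 0, and all red points are above it.

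Markers of ovarian and other cell types also differed between libraries. The follicle cell list was split among the null libraries, with summed levels of 100098, 95228 and 236577 normalized counts in null replicates 1 to 3 and 213049 to 269567 in wild type. Most of this was Cp36, a chorion protein gene of late follicle cells, with 75297, 71698 and 208252 without Gcna and 186380 to 244807 in wild type. The germline list summed to 154662 to 158039 in the null libraries and 163478 to 188853 in wild type, and at an unadjusted p under 0.05 vas and otu were lower and the follicle cell marker Fas3 was higher. None of the 6 germline and 5 follicle cell markers passed the limma test. Of 5 hemocyte markers, 2 were called higher, the prophenoloxidase genes PPO1 (log2 difference 2.17) and PPO2 (2.16), with limma adjusted p of 0.044 and 0.033. Neither passed with any 1 wild-type library left out, without null replicate 3 or without null replicates 1 and 2, where the adjusted p ran from 0.058 to 0.14, and PPO1 did not pass without null replicate 1 (adjusted p = 0.053). In both, null replicate 3 was the highest library, while the summed level of the 5 markers was 841.6 to 1202 in the wild-type and 1230 to 2258 in the null libraries. With limma, none of 7 muscle, 4 fat body, 4 oviduct and spermatheca or 2 tested nervous system markers passed, and at an unadjusted p under 0.05 these were 2 oviduct and spermatheca markers, both higher, and none of the rest. The summed muscle markers ranged from 20406 to 36957 in wild type and from 18309 to 32614 without Gcna, and the fat body markers from 271086 to 332810 and from 194210 to 321004, nearly all of it Yp1, a yolk protein gene that follicle cells also express. Send1, a protease gene of the spermatheca, had 3.74, 69.8 and 21.8 normalized counts in wild type and 136.9, 125.4 and 135.9 in the null libraries, and the summed oviduct and spermatheca list was 401.1 to 585.4 against 863.6 to 1534. The nervous system list summed to 285.5 to 319.3 against 297.9 to 475.0. No marker with a row was at 0 in all libraries. The part of these cell types in the values of the 83 genes was not tested.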

How the data were processed

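The deposited table holds values of the unit signal, that is read counts per gene or repeat that the authors scaled with 1 size factor for each library. All values of a column are whole multiples of 1 step (100% within 1e-06), and whole reads were recovered from these steps. CASAVA 1.8.2, STAR 2.5, DESeq2 and the build dm6 were named per the submitters' processing notes; the counter, its strand setting and the annotation were not given. Gene rows were matched by symbol, locus tag or synonym to the Ensembl BDGP6 annotation, which has dm6 coordinates (12869 rows, 99.0% of gene rows). All 83 genes matched, 74 by the exact symbol.

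The 83 genes, the lists and the fit were chosen with earlier results of these data known. limma 3.58.1 (R 4.3.3, trend) was fitted to log2(normalized count + 1) as GCNA null minus wild type, two-sided with Benjamini-Hochberg adjustment, on the 10132 rows that reached 10 normalized counts in 3 or more libraries. Null replicates 1 and 2 were averaged as 1 sample, and there was no block. The pseudocount shrinks log2 differences of scarce genes, and since the fit averages log values, a difference can also exceed the log2 ratio of the group means where 1 wild-type library is high. On simulated counts for this comparison (10132 genes) the fit recovered 86% of 2-fold and 100% of 4-fold changes. These counts had 1 fixed dispersion for all genes, which was not estimated from these libraries. The recovery at the spread of the real libraries was therefore not tested. Genes given with values in every library are the 12 highest null means and ratios, genes without a wild-type read, with another current symbol, in a group within 20 kb or next to a threshold, the extremes of null replicate 3, and changed neighbours; others serve as examples of a group. Alternatives were pseudocounts, filters, TMM and quantile scaling, 6 separate samples with and without a block, libraries left out, edgeR 4.0.16 and DESeq2 1.42.0 on recovered reads, and other thresholds. Planned counts of promoter motifs and protein length were not made. Floors and intervals cover counting error only.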

Additional observations from a re-analysis of the deposited data

How the results depend on the processing

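The number of genes that met the criteria was 83, and it was 207 with a ratio of at least 2, 46 with at least 8, 53 with a mean of at least 50, 105 with at least 10, 80 with TMM scaling, 85 in CPM and 73 to 99 with 1 library left out. The median log2 ratio of the group means (each plus 1) was 3.06 and stayed between 2.92 and 3.29 with 1 library left out. Among all rows, 431 were called higher and 214 lower; these were 935 and 749 with 6 separate samples, 755 and 542 with DESeq2, 94 and 52 without null replicates 1 and 2, and 222 to 426 and 67 to 277 with 1 library left out. With a replicate block on 6 separate samples, 640 rows were higher and 477 lower, and 5 cell type markers outside the testis list were called, against 7 for the same 6 samples without the block. Same-numbered libraries had correlations of deviations of -0.176, 0.073 and -0.094, and differently numbered ones ran from -0.170 to 0.206. Since null replicates 1 and 2 are nearly alike, these values cannot show whether the numbers pair the samples. Of the 83 genes, 61 were called, 28 without null replicates 1 and 2 and 40 to 60 with 1 library left out. Neighbours called higher were 7, then 12 with 6 samples, 11 with DESeq2, 11 within 50 kb, 2 without null replicates 1 and 2, and 2 to 8 with 1 library left out. Neighbours called lower were 0 with limma (edgeR 0), 4 with 6 samples, 1 with DESeq2, 2 within 50 kb and 0 to 1 with 1 library left out. The testis list had 2 calls, 1 with the filter at 50 normalized counts, 0 without null replicates 1 and 2 and 0 to 2 with 1 library left out. The other cell type lists had 2 calls, 7 with 6 samples, 7 with DESeq2, 1 with no filter, 0 with the filter at 50, 0 with quantile normalization, 0 without null replicates 1 and 2 and 0 to 2 with 1 library left out. Fewer samples or rows entered the fits with libraries left out or a higher filter; otherwise the cause was not tested. For single genes, 1433 values under an alternative were labelled as the same, 137 as moved, 27 as a lost call and 0 as reversed. All 27 lost calls belonged to neighbours or overlapping genes outside the 83. Lost calls of the 83 genes themselves were not labelled in this way. The number of them called was 61 in the main fit and 43 without wild-type replicate 3. Depth limits the ratios of genes with few wild-type reads, since 1 read was worth 0.789 to 1.15 normalized counts.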
